A study of Lens culinaris with 50 samples.

Results

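Embryo and seed coat of lentil (Lens culinaris, cultivar CDC Gold) were compared at the globular stage, with 2 RNA sequencing libraries of each tissue. These 4 libraries were chosen by the tissue and stage in their labels and are 4 of the 50 in the series. The series covers embryo, seed coat and intact whole seed at 8 stages of embryo development, and the unfertilized ovule. All groups share the cultivar and the growth chamber conditions. Flowers were emasculated and then pollinated, though the ovule samples are labelled unfertilized. Tissues were separated with forceps and needles under a microscope, in a solution of 4.8% sucrose with RNALater, a preservative of RNA, and the seed coat sample is what was left once the embryo had been taken out. Whether endosperm stayed with it, how many seeds made up a sample, and whether replicates came from separate plants could not be learned from the labels. The p-values below therefore describe how far these particular samples spread, and that spread may be only technical.

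At the globular stage the embryo of a dicot plant is a ball of dividing cells on a stalk, the suspensor, and its outermost cell layer is being set apart. Cotyledons become visible at the heart stage that follows. The seed coat grows from the integuments of the ovule, so its cells are maternal; it protects the seed, passes sugars and amino acids from the mother plant towards the embryo and, in legumes, makes much of the flavonoid pigment of the seed. The deposited table holds 0 columns of gene names. Genes therefore appear by identifier, no role is given for any of them, and the tissue labels could not be checked against marker genes.

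The embryo libraries held 23520800 and 25907793 reads assigned to genes, and the seed coat libraries 27347095 and 17421838. In the embryo libraries 54.1% and 52.9% of the 58243 genes were at 0, against 48.9% and 49.1% in seed coat. The 10 genes with most reads took 14% and 9.55% of the embryo reads, and 4.53% and 4.09% of the seed coat reads. The tissues thus differed in how evenly reads were spread over genes, and the part of this in the counts below was not tested. Values are given as normalized reads, that is, reads divided by the size factor of the library. They are not divided by transcript length, so ranks of level among genes follow length as well as amount. Over the 29440 genes tested, the Spearman correlation across genes was 0.978 between the embryo replicates, 0.984 between the seed coat replicates, and 0.867 to 0.878 between an embryo and a seed coat library. Of the 6 globular libraries, 1 whole seed library stood apart: replicate 2 had 28.1% of genes at 0, against 45.7% in replicate 1.

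At the globular stage 7958 genes differed between embryo and seed coat, 27% of those tested. A gene was called when its adjusted p was under 0.05 in limma's moderated test (Benjamini-Hochberg over all tested genes) and its fold was at least 2. Higher in embryo were 3553 genes (12.1%), with a median fold of 4.85, and higher in seed coat were 4405 genes (15%), with a median fold of 6.77. In tissue samples, fewer cells of a type and less RNA per cell cannot be told apart. Both libraries of the higher tissue lay above both of the other for 3551 of the 3553 and 4402 of the 4405 genes, against 65.5% of all tested genes with no overlap in either direction.

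The seed coat side was larger at most sizes of difference, and the embryo side at the largest. At least 16-fold apart were 732 genes on the embryo side and 1222 on the seed coat side, and at least 64-fold apart were 260 and 346. At least 256-fold apart, the order was the other way, with 93 genes on the embryo side and 15 on that of seed coat.

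The balance between the tissues changed with the level of the gene. Among genes with a mean of 10 to 100 normalized reads over the 4 libraries, 26.4% were higher in seed coat and 16.5% in embryo. Among those with 100 to 1000 the shares were 17.9% for seed coat and 11.6% for embryo. At 1000 to 10000 normalized reads the order turned, with 20.9% on the embryo side and 8.16% on that of seed coat, and at 10000 or more it was 35% (124 of 354 genes) and 7.91% (28 genes). The embryo thus supplied 38.3% to 39.2% of the called genes in the 3 lower classes, 71.9% at 1000 to 10000 normalized reads and 81.6% in the highest class. The median log2 difference over all tested genes of a class moved the same way. It was -0.28 at 10 to 100 normalized reads, -0.006 at 100 to 1000, 0.46 at 1000 to 10000 and 0.76 at 10000 or more. The turn was thus not confined to the called genes, and the part of scaling in it was not tested. No test was made on these shares.

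**Figure D1:**
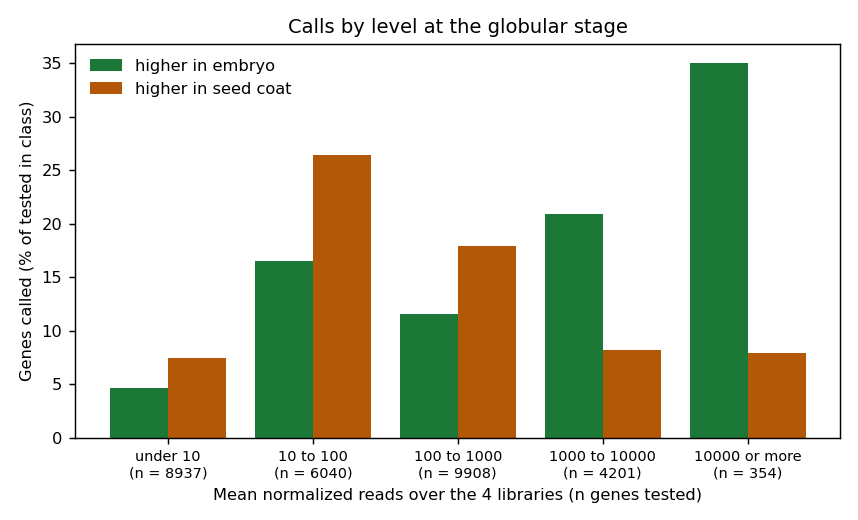
Share of tested genes called for embryo (green) or for seed coat (orange) at the globular stage, in 5 classes of mean normalized reads over the 4 libraries. Seed coat bars are taller in the 3 classes under 1000 normalized reads, and embryo bars are taller from 1000 upwards, reaching 35% against 7.91%.

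The reads themselves were divided unevenly. Genes higher in embryo took 46% and 37.9% of all reads in the embryo libraries, and still 15.4% and 13.7% in the seed coat libraries. Genes higher in seed coat took 19.2% and 18.5% of the seed coat reads, and 1.87% and 1.63% of the embryo reads. These shares describe lists chosen on the same libraries and carry no test.

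The 4 highest of the embryo-high genes together took 10.5% and 6.74% of the embryo reads. The most abundant called gene, Lcu.2RBY.3g002270, stood at 1183462 and 953682 normalized reads in the embryo libraries, 4.26% and 3.33% of all their reads, and at 977 and 361 in the seed coat libraries. The groups were far apart (log2 difference 10.80, SE 1.04, limma adjusted p = 1.59e-09). Its neighbour in the numbering, Lcu.2RBY.3g002280, stood at 484308 and 324660 in embryo and 313 and 154 in seed coat (log2 difference 10.81, SE 0.85, limma adjusted p = 3.11e-11). Another adjacent pair showed the same picture. Lcu.2RBY.3g073510 had 716179 and 336055 normalized reads in embryo against 380 and 174 in seed coat (log2 difference 10.89, SE 1.01, adjusted p = 7.47e-10), and Lcu.2RBY.3g073520 had 546632 and 314597 against 316 and 119 (log2 difference 11.05, SE 0.92, adjusted p = 8.88e-11). In each of these 4 genes, embryo replicate 1 was the higher embryo library and seed coat replicate 1 the higher seed coat library.

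The largest fitted difference belonged to Lcu.2RBY.L021660, at 69040 and 48008 normalized reads in embryo and 42.9 and 14.5 in seed coat (log2 difference 11.11, SE 1.00, limma adjusted p = 3.99e-10). Close to it were Lcu.2RBY.3g002860, at 61758 and 47113 against 41.4 and 14.5 (log2 difference 11.04, SE 1.01), and Lcu.2RBY.6g042510, at 8316 and 7617 against 5.71 and 1.12 (log2 difference 11.04, SE 0.77). Embryo and seed coat libraries did not overlap in any of the 3. With standard errors near 1 on the log2 scale, the order among these genes and the 4 above is within their error.

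Over development, 6 of these 7 genes shared 1 course. In the embryo, Lcu.2RBY.3g002270 stood at 8841 and 6514 normalized reads at the zygote stage, 261233 and 562970 at quadrant, 659988 and 945566 at heart, 7315 and 181 at late bent, and by the mature stage at 6.65 and 53.9. Its seed coat level was 112 and 138 at quadrant and 66.1 and 136 at heart, below both globular seed coat libraries. Lcu.2RBY.3g073520 likewise went from 1226 and 924 at zygote to 31432 and 100983 at quadrant in embryo, and to 3.33 and 1.68 at mature, while its seed coat level was 18 and 18 at quadrant and 2.95 and 14.6 at heart. No test was made on these courses of named genes. The exception was Lcu.2RBY.6g042510, whose embryo level stayed between 5155 and 11447 normalized reads in each library from quadrant to mature.

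On the seed coat side the most abundant called gene was Lcu.2RBY.2g093830, at 188030 and 154718 normalized reads in seed coat, 0.963% and 0.796% of all reads, and 926 and 1129 in embryo (log2 difference -7.38, SE 0.58, limma adjusted p = 1.44e-11). Next were Lcu.2RBY.7g001290 at 108804 and 88040 against 1218 and 907 (log2 difference -6.54, SE 1.14), and Lcu.2RBY.7g077270 at 91024 and 85395 against 764 and 584 (log2 difference -7.04, SE 0.45). Lcu.2RBY.4g034330 had a similar seed coat level, 89039 and 81336, but a higher one in embryo, 5176 and 5678 (log2 difference -3.97, SE 0.58, limma adjusted p = 2.01e-06). In all 4 the tissues were clearly separated, by less than in the embryo genes above. These 4 genes did not keep a common course later. In seed coat at mature Lcu.2RBY.7g001290 was at 2.85 and 75.2, and Lcu.2RBY.7g077270 at 71951 and 76136, with 103343 and 105500 in the late bent embryo.

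The largest fitted differences towards seed coat were smaller than those towards embryo. Lcu.2RBY.2g017770 had 7518 and 7619 normalized reads in seed coat and 7.09 and 15.5 in embryo (log2 difference -9.36, SE 1.13, limma adjusted p = 1.06e-07). Lcu.2RBY.4g074460 had 18656 and 15100 against 23.6 and 38.6 (log2 difference -9.07, SE 0.63, adjusted p = 1.81e-12). Both were also far higher in seed coat than in embryo in every library at the mature stage, with 23311 and 27269 against 20.0 and 16.8 for the first. Lcu.2RBY.2g029730, at 1735 and 1057 against 3.54 and 1.10, and Lcu.2RBY.1g062250, at 9082 and 9181 against 26 and 18.8, behaved otherwise. The first peaked in seed coat at the heart stage (2776 and 1916) and the second was down to 107 and 118 in seed coat at torpedo. Lcu.2RBY.7g048240 had 2 reads in the embryo libraries together and 723 and 870 normalized reads in seed coat, 684 times as many (95% interval from counting alone, 189 to 5650). Lcu.2RBY.6g017080 had 0 reads in both embryo libraries and 393 and 363 normalized reads in seed coat, at least 110-fold higher with a floor of 3 counts per library. Such intervals and floors take in counting error alone, as amplified reads are not independent molecules.

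**Figure D2:**
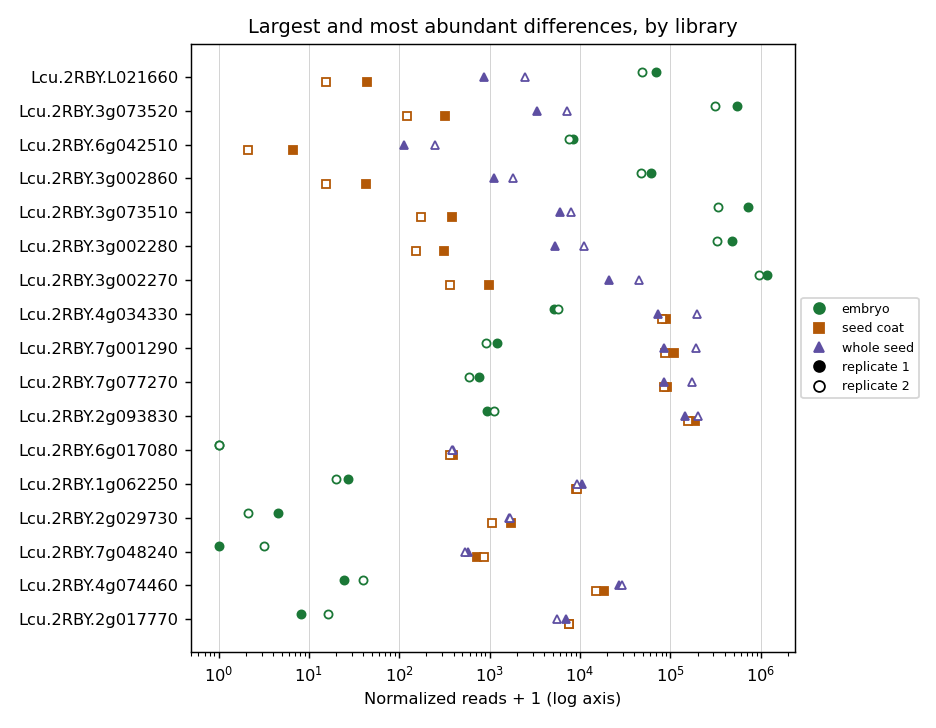
Normalized reads + 1 (log axis) of the 17 genes with the largest fitted differences or the highest levels among called genes, in each globular library of embryo (circles), seed coat (squares) and whole seed (triangles), with replicate 1 filled and replicate 2 open. The whole seed points lie on or near the seed coat points for the seed coat genes, and between the tissues for the embryo genes.

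Some genes were seen in 1 tissue alone at this depth. With at least 100 normalized reads in both embryo libraries, 25 genes had 0 reads in both seed coat libraries. Their embryo means ran from 116 to 757, which puts them at least 42.4-fold to at least 276-fold higher in embryo with the same floor. The highest was Lcu.2RBY.3g043120, at 838 and 676 normalized reads in embryo, followed by Lcu.2RBY.5g061290 at 848 and 654. The other way round, 19 genes had 0 reads in both embryo libraries, with seed coat means of 115 to 378 and bounds from at least 33.5-fold to at least 110-fold. After Lcu.2RBY.6g017080 the highest of these was Lcu.2RBY.5g074120, at 296 and 365 in seed coat. Each of the 25 and of the 19 genes had reads in 1 or both whole seed libraries of the stage.

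Neighbours in the numbering of the identifiers were compared next. Among 16909 adjacent pairs of tested genes, the gene after an embryo-high gene was also embryo-high in 18% (374 of 2082), against 12.1% of all tested genes. For seed coat-high genes it was 18.5% (462 of 2504), against 15%. Overlapping or duplicated genes could share reads, and positions were not used here, so these pairs are a description. The longest embryo runs had 6 genes each. The run from Lcu.2RBY.3g002230 to Lcu.2RBY.3g002280 ends with the abundant pair above and also holds Lcu.2RBY.3g002240, at 2436 and 2646 normalized reads in embryo against 2.14 and 0 in seed coat. The run from Lcu.2RBY.4g024360 to Lcu.2RBY.4g024410 was more even: its first gene had 418 and 212 against 3.57 and 4.46, Lcu.2RBY.4g024390 had 611 and 422 against 8.57 and 20.1, and all 6 log2 differences lay between 3.90 and 5.90. In the run from Lcu.2RBY.3g073730 to Lcu.2RBY.3g073780 they lay between 2.57 and 4.82. The longest seed coat runs had 4 genes, and in that from Lcu.2RBY.5g003420 to Lcu.2RBY.5g003450 the level was carried by Lcu.2RBY.5g003430, at 569 and 449 in seed coat against 14.2 and 3.31 in embryo.

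The other stages, which have libraries of their own, show how far the globular difference was shared. The heart stage, where 27.1% of the tested genes were called, came nearest. Of the 3553 embryo-high genes, 2511 were also embryo-high at heart (70.7% of the globular list and 76.7% of the heart list) and 3 were called the other way. Of the 4405 seed coat-high genes, 3677 were also seed coat-high at heart (83.5% and 78.3%) and 4 the other way. At quadrant, where 37.1% of the tested genes were called, the shared genes were 2380 on the embryo side (67.0% of the globular and 48.9% of the quadrant list) and 3614 on the seed coat side (82.0% and 59.7%). Opposite calls at quadrant were uneven: 133 globular embryo-high genes were seed coat-high there, and 7 globular seed coat-high genes were embryo-high. Across the tested genes, the Pearson correlation of the log2 differences with those at globular was 0.893 for heart, 0.782 for quadrant, 0.598 for zygote and 0.601 for torpedo, falling to 0.495 at early bent, 0.306 at late bent and 0.241 at mature. The share of tested genes called was 18.2% at zygote, 41.4% at torpedo, 41.5% at early bent and 40.8% at late bent. Genes are not independent replicates and the stages share 1 model, so these values are a description.

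At the mature stage 40.2% of the tested genes were called. Of the embryo-high genes, 1122 (31.6% of the globular and 20.8% of the mature list) were embryo-high again and 633 (17.8%) were seed coat-high. Of the seed coat-high genes, 1966 (44.6% and 30.4%) were seed coat-high again and 763 (17.3%) were embryo-high. Of all 29440 tested genes, 5389 were embryo-high and 6459 seed coat-high at mature. Opposite calls were thus no more frequent in the globular lists than over all tested genes. Called the same way at quadrant, globular and heart were 1615 embryo-high genes (45.5% of the globular list) and 3100 seed coat-high genes (70.4%). Called at globular and at neither neighbouring stage were 277 and 214. Few of these separated from quadrant or heart in the test of the difference itself, which uses the same globular libraries. The counts were 39 and 12 against quadrant, and 0 and 1 against heart. Against the mean of the 7 other stages they were 138 and 45. Of all tested genes, 4.82% shifted towards embryo and 3.76% towards seed coat against quadrant. Against heart the shares were 0.0408% and 0.0306%, and against the 7 stages 6.91% and 5.5%. Calls on the same libraries chose these genes, so the counts carry no test.

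The tissue difference at globular was then tested against that at quadrant, the stage before. It differed in 2525 genes (8.58% of those tested), of which 1418 (4.82%) shifted towards embryo from quadrant to globular and 1107 (3.76%) towards seed coat. The embryo changed more than the seed coat between the stages in 1375 of the 1418 genes (97.0%) and in 949 of the 1107 (85.7%). The share over all tested genes was not taken, so these shares do not set the called genes apart. The median log2 change was 2.43 in embryo and -0.23 in seed coat for the first list, and -1.29 and 0.42 for the second. The numbers depended on single libraries. Without seed coat quadrant replicate 1 they were 913 and 509, and the shifts towards seed coat were 654 without embryo globular replicate 2 and 582 without seed coat globular replicate 1.

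Among genes called at globular without overlap of the tissues and with at least 100 normalized reads there, the largest contrasts in each direction were as follows. Lcu.2RBY.7g064830 had 5.23 and 11.6 normalized reads in the quadrant embryo and 4649 and 13814 in the globular embryo, against 338 and 231 and then 549 and 435 in seed coat (log2 contrast 9.02, SE 1.23, limma adjusted p = 1.79e-05). So it went from below the seed coat to above it, without overlap at either stage. Lcu.2RBY.1g046330 had 0 reads in both quadrant embryo libraries and 260 and 254 normalized reads in the globular ones, while in seed coat it had 1.24 and 0.75 and then 0 and 0 (log2 contrast 9.0, SE 0.96, limma adjusted p = 1.69e-07). Towards seed coat, Lcu.2RBY.2g096960 had 0 reads in both tissues at quadrant and 171 and 165 normalized reads in the globular seed coat, with 2.36 and 0 in the globular embryo. Its contrast of -6.53 (SE 1.36, limma adjusted p = 0.00173) rests on groups at 0, and by edgeR its adjusted p was 1. Over its alternatives the adjusted p ran from 8.44e-05 to 1. Lcu.2RBY.L011470 had 30.1 and 93.4 in embryo at quadrant and 7.09 and 0 at globular, while seed coat went from 106 and 148 to 311 and 261 (log2 contrast -5.43, SE 0.89, limma adjusted p = 0.000123). The fitted contrasts of genes with groups near 0 depend on the pseudocount of 1 and are no bounds.

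Against the heart stage, 21 genes differed (0.0713% of those tested), 12 towards embryo at globular (0.0408%) and 9 towards seed coat (0.0306%). In all 21 the embryo changed more than the seed coat, and here too the share over all tested genes was not taken. At an unadjusted p under 0.05 there were 1494 genes. With no difference at all, 0.05 of the 29440 tested genes would be expected there, which is about as many. The small number called still does not show that the stages were alike. It also hung on the libraries: it was 0 by limma without seed coat heart replicate 1 (1078 genes at an unadjusted p under 0.05), 1 without seed coat globular replicate 1, 2 without seed coat heart replicate 2, 3 without seed coat globular replicate 2, and 11 without embryo globular replicate 2. Leaving out embryo globular replicate 1, embryo heart replicate 1 or embryo heart replicate 2 gave 32, 49 and 39.

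In all 12 genes towards embryo, the globular embryo libraries lay below both quadrant and above both heart embryo libraries, an order noted after the values were seen. The globular and heart libraries chose the genes of this contrast, so the order of globular and heart in embryo follows in part from the choice. How many of all tested genes had such an order was not counted. Lcu.2RBY.4g043570 had 1211 and 1600 normalized reads in the quadrant embryo, 125 and 108 at globular and 15.4 and 5.72 at heart, with 2.14 and 2.23 in the globular seed coat (log2 contrast 4.17, SE 0.85, limma adjusted p = 0.0398). Lcu.2RBY.5g073730 went from 3607 and 2520 through 273 and 136 to 21.7 and 30.1 in embryo, while its seed coat level stood at 1408 and 1285 at globular and 1730 and 1939 at heart (log2 contrast 3.31, SE 0.64, limma adjusted p = 0.0322). It was higher in embryo at quadrant and higher in seed coat at globular. Of the 9 genes towards seed coat, 4 had the reverse order and 5 were lowest at globular in embryo. Among the 4, Lcu.2RBY.7g056120 went in embryo from 107 and 109 at quadrant through 1478 and 610 to 6117 and 6961 at heart, as seed coat went from 373 and 309 at globular to 194 and 190 (log2 contrast -3.60, SE 0.66, limma adjusted p = 0.0249). Among the 5, Lcu.2RBY.7g051960 had 33.1 and 13.2 in the globular embryo, against 64.1 and 37.5 at quadrant and 88.9 and 176 at heart, with 1732 and 1303 in the globular seed coat (log2 contrast -2.81, SE 0.55, limma adjusted p = 0.0322). The adjusted p of these 4 contrasts passed 0.05 in some alternatives, with the highest value at 0.25, 0.186, 0.181 and 0.292 in the order given. The tissue difference of Lcu.2RBY.7g056120 itself (log2 difference 1.48, limma adjusted p = 0.0125) had an adjusted p of 0.288 without embryo globular replicate 1, 0.0916 without seed coat globular replicate 2, and 0.12 with the spread of the compared groups alone.

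**Figure D3:**
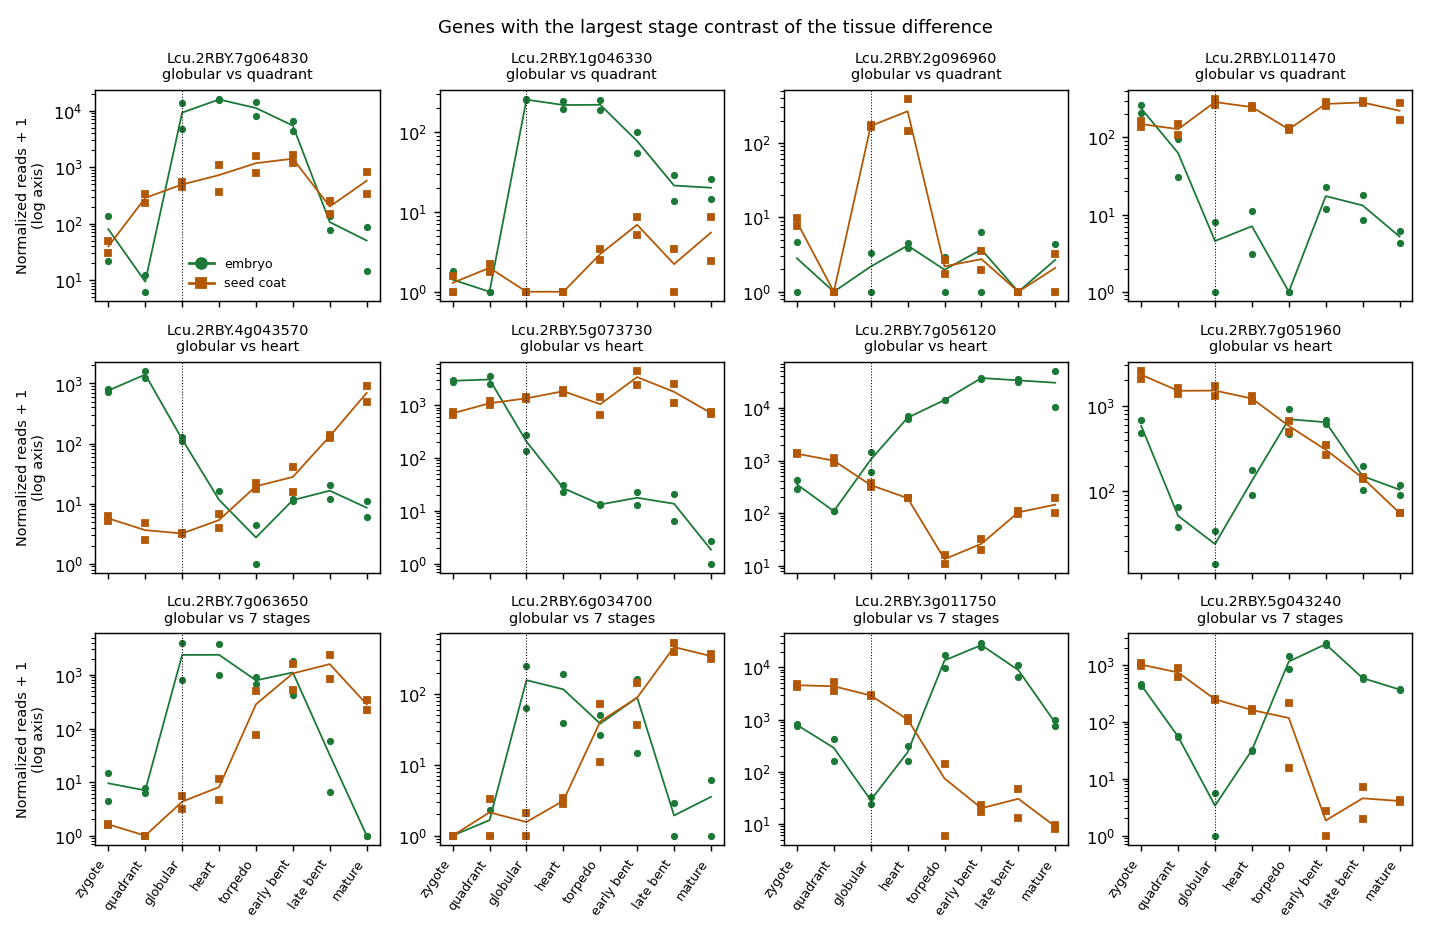
Normalized reads + 1 (log axes) of 12 genes over the 8 stages in embryo (green circles) and seed coat (orange squares), with each library as a point, lines through the means of the 2 libraries, and the globular stage dotted. The top row shows contrasts of globular with quadrant, the middle row with heart and the bottom row with the mean of the 7 other stages, in each case the 2 largest in each direction among genes called at globular without overlap and with at least 100 normalized reads there.

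Set against the mean of the 7 other stages, the globular difference departed in 3654 genes (12.4% of those tested), 2034 towards embryo (6.91%) and 1620 towards seed coat (5.5%). Lcu.2RBY.7g063650 had 3929 and 796 normalized reads in the globular embryo against 2.14 and 4.46 in seed coat, and at late bent 56.3 and 5.54 against 2351 and 828 (log2 contrast 8.62, SE 1.11, limma adjusted p = 1.99e-06). The tissues thus exchanged rank between the stages. Lcu.2RBY.6g034700 did so too, with 248 and 62.9 against 0 and 1.12 at globular and 0 and 1.85 against 521 and 395 at late bent (log2 contrast 7.98, SE 1.06, limma adjusted p = 2.08e-06). In both genes globular embryo replicate 1 lay far above replicate 2, and by edgeR the adjusted p of both contrasts was 1. Over the alternatives it ran from 1.89e-09 to 1 for the first and from 3.46e-08 to 1 for the second.

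Towards seed coat the exchange ran the other way. Lcu.2RBY.3g011750 had 2985 and 2820 normalized reads in the globular seed coat against 31.9 and 23.2 in embryo, and 16.1 and 22.0 against 24456 and 29270 at early bent (log2 contrast -10.33, SE 0.88, limma adjusted p = 2.32e-09). Lcu.2RBY.5g043240 had 251 and 244 against 4.73 and 0 at globular, and 1.69 and 0 against 2420 and 2214 at early bent (log2 contrast -9.74, SE 0.82, limma adjusted p = 1.33e-09). In both genes each seed coat library lay above each embryo library at zygote and quadrant, and below from torpedo on. The counts of this contrast depended on the globular libraries, with 1169 genes towards embryo without embryo replicate 1, 1296 and 1063 in the 2 directions without seed coat replicate 1, and 1260 towards embryo without seed coat replicate 2.

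Followed over development, the genes that differed at least 16-fold at globular had a different course in each tissue. The 732 embryo-high genes had a median in embryo of 60.0 normalized reads at zygote, 123 at quadrant, 178 at globular, 147 at heart, 66.1 at torpedo and 7.57 at mature. Their seed coat median was 1.99 at globular, 6.84 at torpedo, 8.91 at early bent and 7.42 at mature. At mature the medians of the 2 tissues were thus close, and the larger part of the way had been in embryo. Close medians do not mean that single genes were alike in the tissues. Fewer genes were at 0 in the later seed coat libraries, 30.3% and 19.4% at torpedo and 28.6% and 14.3% at mature. At globular it was 48.9% and 49.1%, and the part of this in the low medians was not tested. The 1222 seed coat-high genes had seed coat medians of 196 at zygote, 223 at globular, 242 at early bent and 157 at mature. Their embryo median went from 67.0 at zygote through 11 at quadrant to 4.28 at globular and 4.23 at heart, and was 26.5 at late bent and 17.5 at mature. The globular values chose these genes, so a peak or trough there follows in part from the choice, and no test was made.

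**Figure D4:**
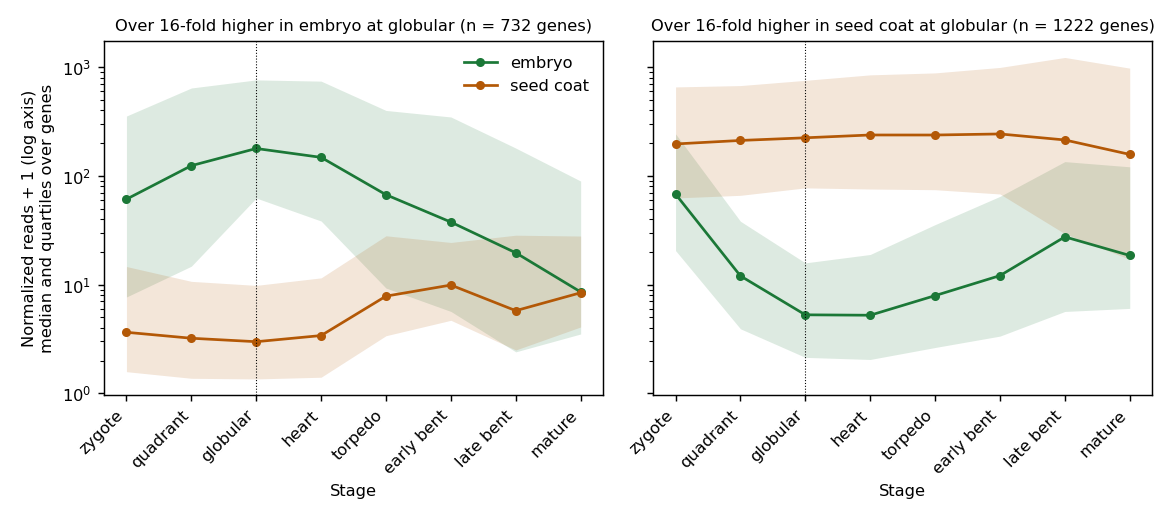
Median (lines) and quartiles (bands) over genes of normalized reads + 1 (log axis) in embryo and seed coat at the 8 stages, for the 732 genes at least 16-fold higher in embryo at globular (left) and the 1222 at least 16-fold higher in seed coat (right). Embryo and seed coat lines meet at the mature stage on the left, and stay apart at each stage on the right, where the embryo line is lowest at globular and heart.

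The globular embryo was seldom the extreme of its own series, and neither were the heart and torpedo embryo. Both globular embryo libraries lay above all 14 other embryo libraries in 241 of the tested genes (0.819%) and below all in 304 (1.03%). The corresponding numbers were 2657 and 1425 at quadrant, 387 and 502 at heart and 271 and 184 at torpedo. At zygote, early bent, late bent and mature at least 984 genes lay above and at least 703 below. The globular seed coat lay above all 14 other seed coat libraries in 1001 genes (3.4%) and below all in 981 (3.33%), against 703 and 564 at quadrant and 447 and 458 at heart. No test was made on these counts.

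Traces of each tissue's genes in the other sample were measured on sets chosen after the data were seen, from the quadrant and heart stages alone. A set of 60 genes had at least 1000 normalized reads in embryo and under 5% of that level in seed coat at both of these stages. At globular their median level in seed coat was 0.145% of that in embryo (quartiles 0.0657% and 0.61%), with 0.178% in replicate 1 and 0.106% in replicate 2. The corresponding 128 seed coat genes had a median level in embryo of 1.25% of that in seed coat (quartiles 0.834% and 1.71%), with 1.13% and 1.25% in the replicates. All 60 and all 128 genes were called at globular in the direction of their set, against 12.1% and 15% of all tested genes. Large differences at both neighbouring stages chose these genes, so this outcome follows in large part from the choice. The lowest value was 0.149% and the highest 7.41% among the 128 genes. The source of these traces was not tested.

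The intact whole seed of the same stage holds both tissues and was compared with each. It differed from the embryo in 8833 genes (30%), 4994 higher in whole seed (17%) and 3839 higher in embryo (13%). From the seed coat it differed in 124 genes (0.421%), 78 higher in whole seed (0.265%) and 46 higher in seed coat (0.156%). At an unadjusted p under 0.05 there were 1353 genes. With no difference at all, 0.05 of the 29440 tested genes would be expected there, which is more. With quantile scaling 47.6% of the genes that differed from seed coat were higher in whole seed, against 62.9% with the deposited scaling. Whole seed replicate 1 had Spearman correlations across genes of 0.981 and 0.976 with the seed coat libraries, and of 0.872 and 0.877 with the embryo libraries.

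The embryo weight of the whole seed, fitted by least squares over 4972 genes and held at 0% or above, was 0.705% in replicate 1 and 0.0% in replicate 2. Over the embryo-high genes alone it was 2.10%. The 0.0% is the limit set on the fit, so it does not show that embryo reads were absent. Whole seed replicates 1 and 2 lay above both tissue means in 55.8% and 46.1% of the seed coat-high genes. They lay below both in 44.2% and 30.5% of the embryo-high genes. The 60 embryo genes of the set above had a median in whole seed of 1.83% and 2.75% of the embryo level, and the 128 seed coat genes 93.0% and 105% of the seed coat level. Among single genes, Lcu.2RBY.3g002270 stood at 20959 and 44758 normalized reads in whole seed, higher in replicate 2, unlike the fitted weight. Lcu.2RBY.2g093830 stood at 144584 and 204322. The first lay between its tissues and the second overlapped its seed coat libraries.

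Outside the range of both tissues, the whole seed was called above both in 1 gene and below both in 40; these counts rest on 2 comparisons that share the whole seed libraries. Lcu.2RBY.4g024450 had 427 and 506 normalized reads in whole seed, 146 and 138 in seed coat and 29.5 and 11 in embryo. Its log2 difference from seed coat was 1.70 (SE 0.40, limma adjusted p = 0.0387), and over the alternatives the adjusted p ran from 0.000527 to 0.672. Below both, Lcu.2RBY.5g024240 had 0 reads in both whole seed libraries, against 339 and 208 normalized reads in embryo and 150 and 399 in seed coat. Lcu.2RBY.5g016340 had 0 as well, against 250 and 149 and 91.4 and 274. Lcu.2RBY.5g019860 had 0.76 and 2.61, against 618 and 296 and 242 and 543. The tissues overlapped in each of the 3 genes, and none was called between them.

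The 40 genes were followed over the stages by their median, which was 97.5 and 62.9 normalized reads in the globular embryo, 37.9 and 88.1 in the globular seed coat and 0 and 0.87 in the globular whole seed. At quadrant it was 159 and 194 in embryo, 289 and 263 in seed coat and 158 and 278 in whole seed. At heart it was 0 and 0 in embryo, 0.30 and 0.41 in seed coat and 0.62 and 0.69 in whole seed. In the whole seed it did not stay low: it was 1.07 and 107 at early bent and 313 and 283 at late bent, where embryo had 0 and 0 and seed coat 1.22 and 0.93. The medians do not hold for each gene, since 33 and 34 of the 40 were under 10 normalized reads in the heart embryo, and Lcu.2RBY.7g076270 was at 1924 and 1779 there. The reason for these levels was not tested. The counts against seed coat rested on few libraries. Without whole seed replicate 2, 3 genes were higher in whole seed, 1 in seed coat and 1 below both tissues. Without seed coat replicate 2 it was 6, 1 and 1, without seed coat replicate 1 it was 51, 26 and 21, and without whole seed replicate 1 it was 78, 146 and 104.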

How the data were processed

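RNA of embryo and seed coat at the globular stage was sequenced in 2 libraries each, and per the labels' protocols the kit was one for small amounts of RNA. The submitters' processing notes list DESeq2, featureCounts, Trimmomatic and CASAVA. Aligner, genome build and strandedness were not given in the sources used. The authors deposited 1 signal value per gene and library, namely a read count divided by the library's DESeq2 size factor. Whole reads, to within 0.001 of a read, were recovered from 100% of the values, and median-of-ratios factors recomputed from them differed from the deposited ones by at most 6.33e-13%. Library totals over the series ran from 13019472 to 35634980 reads. No replicate pair was near identical (mean chi-square per gene at least 15.0).

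The values were tested with limma 3.58.1 (R 4.3.3; robust, with trend) on a log2(normalized reads + 1) scale, which understates the change of low genes. The fit held all 50 libraries in 25 groups (25 residual degrees of freedom). A gene was tested if 2 or more libraries had 10 or more normalized reads, which kept 29440 of 58243; of the 58243, 2323 were at 0 throughout. A call needed a Benjamini-Hochberg adjusted p under 0.05 and a fold of at least 2. Stage contrasts were tested as interaction terms. A floor of 3 counts per library and 95% intervals served genes at or near 0. The scripts were tested on simulated data.

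Alternatives were pseudocounts of 0.5 and 8, no filter and a filter of 50, a block on the replicate number, quantile and TMM scaling, no fold required, weights for libraries by group, the compared groups alone, each replicate left out, and edgeR 4.0.16 and DESeq2 1.42.0 on the recovered reads. Leaving out 5 libraries was added after the data were seen: whole seed globular, embryo mature, and seed coat torpedo, early bent and mature, replicate 2 of each. Each had under 30% of genes at 0 and at least 10 percentage points fewer than the other library of its group. Both ovule libraries, at 18.2% and 21.6%, were alike and were kept. The lists of members and the tests were chosen with earlier results of these data known. Gene lists by function and marker genes had been planned, and could not be used without gene names.

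Genes are named by rule, 33 in all. Most come from genes called between the tissues without overlap of libraries and reaching 100 normalized reads in the higher tissue. Of these the rule takes the 6 largest differences, the 4 highest levels and the 2 largest stage contrasts in each direction. It adds up to 3 genes in each direction with the whole seed called outside both tissues and without overlap with either. Those reach 100 normalized reads in whole seed if above, or in each tissue if below. They need no call between the tissues. Other genes named in the text were chosen after their values were seen.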

Additional observations from a re-analysis of the deposited data

Results flagged for a closer look

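Genes were called in each test of the tissue difference itself between stages. Against quadrant, 2525 genes were called (8.58% of those tested), against heart 21 (0.0713%), and against the mean of the 7 other stages 3654 (12.4%). Against heart, 1494 genes had an unadjusted p under 0.05 by limma, about as many as would be expected with no difference at all. Single genes with large contrasts are given here as log2 contrasts of the limma fit, with positive values towards embryo at globular. Against quadrant they were 9.02 for Lcu.2RBY.7g064830, 9.0 for Lcu.2RBY.1g046330, -6.53 for Lcu.2RBY.2g096960 and -5.43 for Lcu.2RBY.L011470. Against heart they were 4.17 for Lcu.2RBY.4g043570, 3.31 for Lcu.2RBY.5g073730, -3.60 for Lcu.2RBY.7g056120 and -2.81 for Lcu.2RBY.7g051960. Against the mean of the 7 other stages they were 8.62 for Lcu.2RBY.7g063650, 7.98 for Lcu.2RBY.6g034700, -10.33 for Lcu.2RBY.3g011750 and -9.74 for Lcu.2RBY.5g043240. By edgeR the contrasts of Lcu.2RBY.2g096960, Lcu.2RBY.7g063650 and Lcu.2RBY.6g034700 were not called. Those of Lcu.2RBY.L011470 and of all the genes given against heart lost their call in some alternatives. With 2 libraries a group, single libraries were not screened for outlying values.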

How the results depend on the processing

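The difference between embryo and seed coat at globular kept its counts within 1.5 times under each alternative. TMM scaling gave 3192 genes higher in embryo and 4725 in seed coat, quantile scaling 3359 and 3690, edgeR 3564 and 4253, and DESeq2 3638 and 4378. Leaving out 1 replicate gave 2738 to 3397 and 3637 to 3944. Called in the same direction in all 15 alternatives compared gene by gene were 1771 of the embryo-high genes (49.8%) and 2698 of the seed coat-high genes (61.2%), and no gene was called the other way in any of them. Of 977 values of named genes under alternatives, 915 kept direction and call, 62 kept the direction alone and 0 reversed. For the tissue difference it was 490 of 493, and the other 3 belong to Lcu.2RBY.7g056120.

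The contrast with heart was the least stable, from 12 genes towards embryo and 9 towards seed coat. It gave 48 and 25 with a pseudocount of 8, 3 and 5 with no filter, 159 and 135 with library weights, 24 and 50 by DESeq2, and, once the 5 libraries with few genes at 0 were left out, 31 and 31. The genes towards embryo were 7 with a pseudocount of 0.5, 19 with quantile scaling, 5 by edgeR and 7 with the compared groups alone. Whole seed against seed coat, from 78 higher in whole seed and 46 in seed coat, gave 43 and 16 with library weights, 18 and 1 without the 5 libraries, and 13 and 8 with the compared groups alone. The genes higher in seed coat were 28 with a pseudocount of 8, 76 with quantile scaling and 16 by edgeR. Below both tissues were 23, 68, 16, 14, 1 and 8 genes in place of 40, with a pseudocount of 8, quantile scaling, library weights, edgeR, without the 5 libraries and with the compared groups alone. Above both was 1 gene; it became 2 with TMM scaling, quantile scaling and DESeq2, and 0 with library weights, without the 5 libraries and with the compared groups alone. The embryo weight was 2.10% over embryo-high genes alone in place of 0.0%. The cause of these changes was not tested, except that 1 of the 5 libraries is whole seed globular replicate 2 itself. Quantile scaling moved the median log2 difference of all genes by -0.16 for the contrast with the 7 other stages and by -0.23 for whole seed minus embryo.

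With 1 replicate left out, where the lone library is assumed to vary like the other groups, the contrast with quadrant gave 913 to 1464 genes towards embryo and 509 to 1030 towards seed coat. The contrast with heart gave 0 to 41 and 0 to 33, and that with the 7 other stages 1169 to 2276 and 1063 to 1791. Whole seed against embryo gave 4018 to 4957 and 3136 to 3563, and against seed coat 3 to 78 and 1 to 146. Above both tissues were 0 to 10 genes and below both 1 to 104, and the embryo weight was 0% to 0.705%.

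Embryo and seed coat libraries share replicate numbers, but nothing says that a number marks a shared plant or day. Deviations of same-numbered globular libraries correlated at 0.18. With the replicate block 3555 genes were higher in embryo and 4402 in seed coat, and no other count moved by over 1.5 times. With 2 libraries a group, differences near the spread of low genes were not detectable at this depth.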
